A study of Mus musculus with 32 samples.

Results

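Glycolysis and the handling of its end product pyruvate were followed through 36 genes, taken by symbol from the 31053 features of the count matrices. They encode glucose carriers (*Slc2a1*, *Slc2a3*), the enzymes from hexokinase to pyruvate kinase, lactate dehydrogenase, the lactate carriers (*Slc16a1*, *Slc16a3*), the *Pfkfb* enzymes that set the pace of phosphofructokinase, and the genes that admit pyruvate to the mitochondrion and to the pyruvate dehydrogenase complex. All 36 genes were found, all are protein coding in GENCODE M21, and they lie on 15 chromosomes. The cells were bone marrow stromal cells of Diversity Outbred mice, an outbred stock descended from several inbred strains, grown in osteogenic medium so that they mineralize (BMSC-OBs). Droplet single-cell RNA-seq was run on 16 pools, each holding the cells of 4 or 5 mice of mixed genotype. Every pool had the same culture condition, so there is no treated group, and the comparisons are between cell classes within the same pools. Cells were assigned to classes from marker genes, none of which is one of the 36, and a pool entered a class only with at least 20 of its cells.

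Glycolysis splits glucose into pyruvate in the cytosol and yields ATP without oxygen. Pyruvate is then either reduced to lactate by lactate dehydrogenase and exported by monocarboxylate carriers, or carried into the mitochondrion by the MPC1-MPC2 carrier and turned into acetyl-CoA by pyruvate dehydrogenase, which the pyruvate dehydrogenase kinases (PDKs) switch off. Several steps have isoenzymes from separate genes, with different regulation and tissue distribution. Osteoblasts are known for making lactate even when oxygen is present, osteoclasts for their many mitochondria, and neutrophils for a reliance on glycolysis.

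After removal of called doublets, 83906 cells were used. The osteoblast lineage was divided into LMP-like cells (10422, mesenchymal progenitors), OBP-like cells (7099, osteoblast progenitors), OB1-like (4713) and OB2-like (5405) osteoblasts and Ocy-like cells (3899, osteocyte-like). MALP-like cells (7826) are marrow adipogenic lineage precursors. The blood-derived classes were macrophage-like (9504), granulocyte-like (1701), monocyte-like (600), osteoclast-like (470), T-cell-like (420) and B-cell-like (371). No class was given to 22633 cells (27.0%), another 8639 cells (10.3%) passed as osteogenic but got no subclass, and 80 endothelial-like and 124 glial-like cells entered no comparison. Median depth per cell differed between classes, from 3526 UMIs in granulocyte-like to 20007 in OBP-like cells, and a pool held 53990642 to 100777353 UMIs in total. In most of the 12 classes described, the gene with the largest fold over the other classes was a marker of its class. Examples were *Tagln* in LMP-like, *Mepe* in OB1-like, *Ero1l* in OB2-like, *Adipoq* in MALP-like, *C1qa* in macrophage-like and *Mmp9* in osteoclast-like cells. The exceptions were *Mamdc2* in OBP-like and *Gzma* in T-cell-like cells. Cells were gated on these same markers, so their lead follows from the gate and is no independent evidence for the classes. LMP-like cells serve as the second group of 3 comparisons and OB1-like and macrophage-like cells of 2 each, and OBP-like, OB1-like and macrophage-like cells are also the first group of another, so these comparisons are not independent. Levels are given as UMIs (unique molecular identifiers, one for each captured transcript) of a gene per 10,000 UMIs of a class in a pool. A 3′ UMI count does not scale with transcript length, so levels of different genes are set on this scale without length correction. A gene was called higher or lower with a Benjamini-Hochberg adjusted p of at most 0.05 over all genes tested (quasi-likelihood test of edgeR, blocked by pool) and a log2 fold change of at least 0.5 in size. Fold changes in the test are relative to TMM scaling, while levels and the numbers of pools are on the scale of UMIs per 10,000, and the 2 scales can differ. A level is a share of all UMIs of a class, so it also depends on what other genes take up. Reads of *Eno1* (with *Eno1b*) and *Gapdh* can be shared with near-identical copies, so their absolute levels and their differences between pools are uncertain. The 3′ tags do not separate the *Pkm* isoforms.

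The promoters of 5 genes called higher in OB2-like cells are shown because the results turn most on that comparison. Each is the 250 bases before the RefSeq transcription start (RefSeq, GRCm38.p6), 5′ to 3′ on the strand of the gene. Capitals mark ACGTG, or CACGT where it lies on the other strand, the core of the element bound by hypoxia-inducible factor (HIF), and a CACGTG would hold both. These genes have a single RefSeq start and were chosen after their values were seen. *Slc16a3* encodes the lactate exporter MCT4 (chr11:120948817-120949066, plus strand).
Slc16a3: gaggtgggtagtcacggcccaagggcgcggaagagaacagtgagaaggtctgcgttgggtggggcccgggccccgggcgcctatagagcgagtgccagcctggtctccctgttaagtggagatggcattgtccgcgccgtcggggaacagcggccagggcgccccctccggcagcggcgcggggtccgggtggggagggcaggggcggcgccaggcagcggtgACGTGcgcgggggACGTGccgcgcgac
*Pgk1*, phosphoglycerate kinase, lies on the X chromosome (chrX:106186850-106187099, plus strand).
Pgk1: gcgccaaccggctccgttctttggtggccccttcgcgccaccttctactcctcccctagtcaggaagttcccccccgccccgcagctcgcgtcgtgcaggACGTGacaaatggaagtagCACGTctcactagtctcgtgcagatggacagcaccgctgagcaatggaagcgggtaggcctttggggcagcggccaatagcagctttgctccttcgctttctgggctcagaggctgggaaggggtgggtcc
*Pgam1* encodes phosphoglycerate mutase (chr19:41911621-41911870, plus strand).
Pgam1: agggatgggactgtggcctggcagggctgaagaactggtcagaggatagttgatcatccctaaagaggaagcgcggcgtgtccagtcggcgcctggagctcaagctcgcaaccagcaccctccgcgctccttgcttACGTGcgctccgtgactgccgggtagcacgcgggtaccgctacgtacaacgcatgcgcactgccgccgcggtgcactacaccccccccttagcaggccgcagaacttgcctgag
*Pfkp* is the platelet-type phosphofructokinase (chr13:6648772-6649021, minus strand).
Pfkp: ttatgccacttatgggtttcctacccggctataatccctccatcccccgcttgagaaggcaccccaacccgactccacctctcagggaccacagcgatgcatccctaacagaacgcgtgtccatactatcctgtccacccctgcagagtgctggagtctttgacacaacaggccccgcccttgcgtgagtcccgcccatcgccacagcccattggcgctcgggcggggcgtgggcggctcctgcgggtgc
*Gapdh* encodes glyceraldehyde-3-phosphate dehydrogenase (chr6:125165774-125166023, minus strand).
Gapdh: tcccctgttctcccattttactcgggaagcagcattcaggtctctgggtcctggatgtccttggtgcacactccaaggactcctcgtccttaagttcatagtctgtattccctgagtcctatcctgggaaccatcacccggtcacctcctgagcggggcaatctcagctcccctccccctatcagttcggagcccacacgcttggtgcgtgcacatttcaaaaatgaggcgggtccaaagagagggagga
The *Slc16a3* and *Pgk1* windows hold the motif 2 times each, the *Pgam1* window holds it once, and the *Pfkp* and *Gapdh* windows do not hold these letters. The *Slc16a3* and *Gapdh* windows lie within the GENCODE bounds of their own genes, which also have starts further upstream. Of the 35 genes with an entry in the promoter table, 16 (45.7%) had ACGTG on either strand in at least 1 promoter, beside 18.5% of all 27025 genes. Counted by promoter, these were 20 of 55 (36.4%) and 16.6% of all 32851 promoters of the same length. It was in 9 of the 19 matched genes called higher in OB2-like cells (47.4%) and in 7 of the other 16 (43.8%).

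Expression across the classes was led by a few abundant enzymes. In LMP-like cells *Gapdh* had the highest median level (19.7 UMIs per 10,000), followed by *Ldha* (16.8), *Pgam1* (13.1), *Pgk1* (11.1), *Aldoa* (10.8), *Pkm* (8.47) and *Tpi1* (7.54). The ranges over pools of neighbors in this order overlapped. Hexokinases and phosphofructokinases had lower levels, with *Pfkl* at 1.14, *Hk2* at 0.677 and *Hk1* at 0.546. *Pfkfb1* and *Pfkfb2* had medians under 0.1 in all 12 classes described. OB2-like cells had the highest median of all classes for 14 of the 36 genes, MALP-like and T-cell-like cells for 6 each, and osteoclast-like cells for 4. The same count over all genes is not given, and the medians rest on unequal numbers of pools. These counts are therefore a description and not a result particular to the 36 genes.

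**Figure D1:**
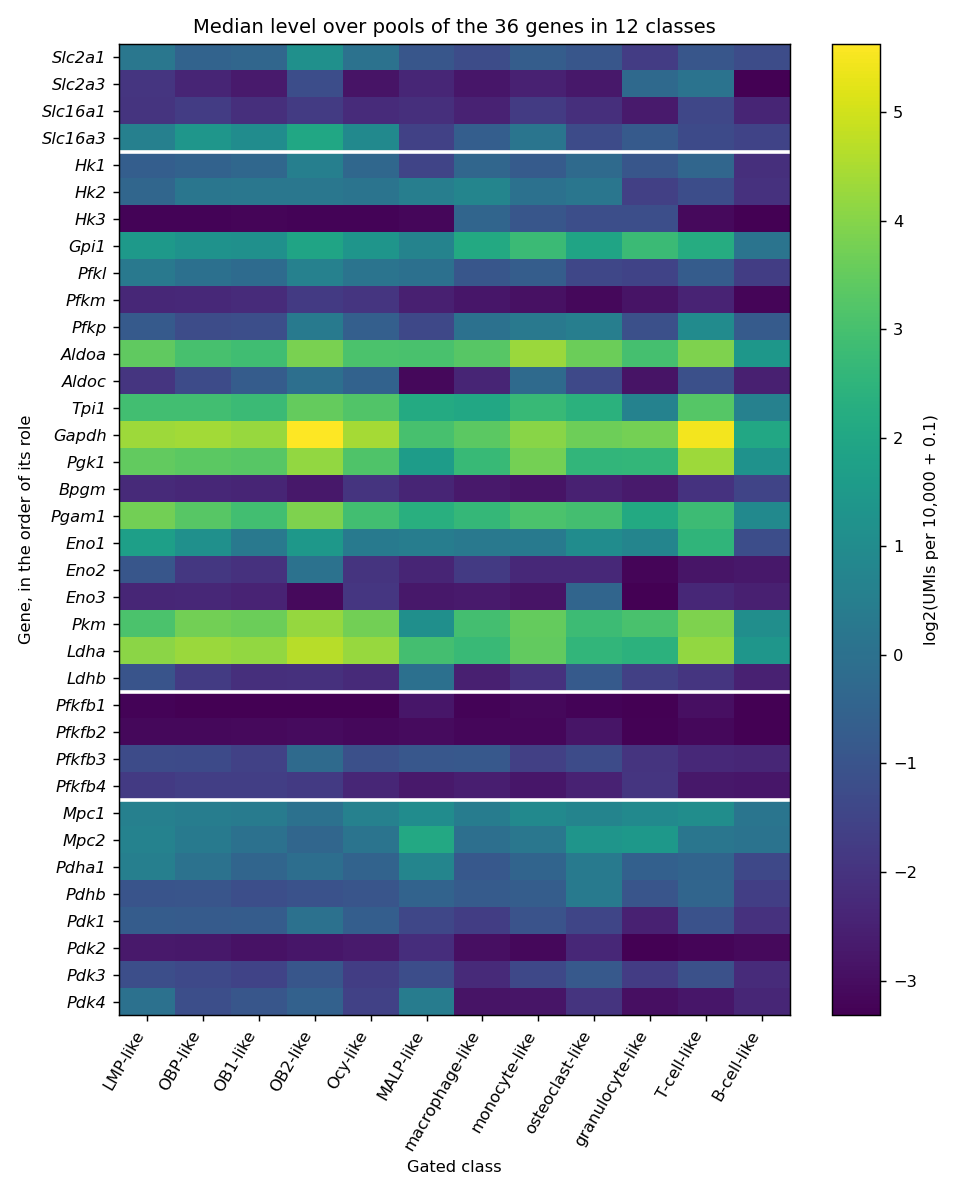
Median level over pools as log2 of UMIs per 10,000 plus 0.1 (color scale, brighter is higher), with genes in rows by role and the 12 cell classes in columns. The row of *Gapdh* is brightest in OB2-like (a median of 49.4) and T-cell-like cells, *Hk3* is bright in the blood-derived myeloid classes, and *Mpc2* is brightest in MALP-like cells.

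Summed over the 36 genes, the median level over pools was 177 (139 to 204) UMIs per 10,000 in OB2-like cells, the range over pools in parentheses. It was 107 (65.1 to 159) in LMP-like, 106 (67.04 to 136) in OBP-like, 96.6 (49.5 to 116) in OB1-like and 105 (49.6 to 122) in Ocy-like cells. Within pools the OB2-like sum was 1.75 times the OB1-like sum in the median pool and above it in 14 of 14 pools. MALP-like cells had 57.4 (44.9 to 87.5), below LMP-like cells in 16 of 16 pools. Macrophage-like cells had 63.6 (51.996 to 91.7), also below LMP-like cells in 16 of 16. In osteoclast-like cells the sum was 76.9 (68.3 to 88.6), above the macrophage-like sum in 4 of 4 pools, and in granulocyte-like cells it was 61.6 (46.9 to 106). T-cell-like cells had the widest spread, 154 (52.9 to 187) over 4 pools, and B-cell-like cells the lowest sum, 24.5 (16.9 to 36.8), where the immunoglobulin light chain *Igkc* alone made up a median of 3544 UMIs per 10,000. In LMP-like cells *Gapdh* was a median of 21.3% of the sum and *Ldha* 14.96%, so the sums follow the abundant enzymes. They are a description with no test.

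**Figure D2:**
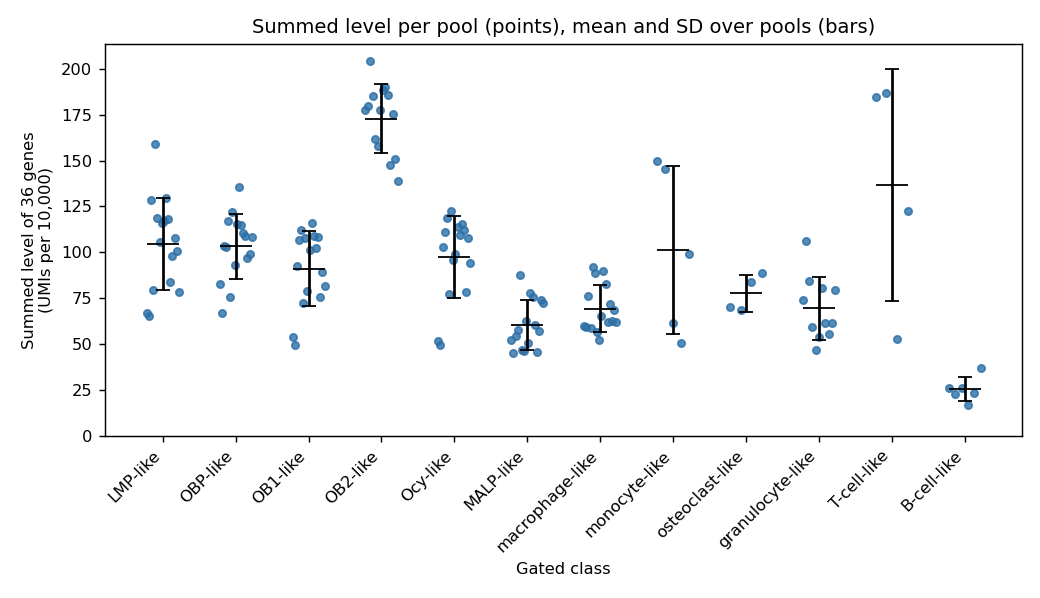
Summed level of the 36 genes in UMIs per 10,000 (vertical axis) by cell class (horizontal axis), one point for each pool with at least 20 cells, with bars for the mean and SD over pools. OB2-like pools sit between 139 and 204, MALP-like pools between 44.9 and 87.5, and the 4 T-cell-like pools between 52.9 and 187.

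OB2-like osteoblasts had more mRNA of most glycolytic steps than OB1-like osteoblasts. Of 34 genes tested in 14 pools, 20 were higher in OB2-like cells and 2 were lower, while among all 10609 genes tested 14.0% were higher and 11.5% lower. The median log2 fold change was 0.72 over the 34 genes and -0.00 over all genes. Both glucose carriers, *Hk1*, all 3 phosphofructokinases, the enzymes from aldolase to phosphoglycerate mutase, *Eno1*, *Eno2* and both lactate carriers were called higher, and neither mitochondrial carrier subunit was. *Hk3* and *Pfkfb1* were too low to be tested. OB1-like levels below are over all 16 of its pools and the tests over the 14 pools with both classes.

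Glucose uptake genes had large differences. *Slc2a1*, the widely used glucose carrier GLUT1, had a lowest, median and highest level of 1.76, 2.13 and 2.82 UMIs per 10,000 in the 14 OB2-like pools and 0.215, 0.678 and 1.24 in the 16 OB1-like pools. The groups did not overlap, and the log2 fold change was 1.75 ± 0.14 (SE, adjusted p = 5.9e-09). *Slc2a3*, the high-affinity carrier GLUT3, was at 0.0717, 0.335 and 0.404 against 0.0192, 0.0576 and 0.192, with a log2 fold change of 2.15 ± 0.20 (adjusted p = 2.8e-08). It was higher in 14 of 14 pools, although some OB2-like pools lay within the OB1-like range. Both carriers therefore rose while *Slc2a1* kept the higher level.

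In the upper pathway *Hk1*, a hexokinase bound to mitochondria, was at 1.05, 1.35 and 1.56 against 0.285, 0.701 and 0.823 (0.89 ± 0.08, adjusted p = 2.9e-08), and its pools did not overlap. *Hk2*, the inducible hexokinase, was not called (-0.08 ± 0.07, adjusted p = 0.39). Its level was higher in 7 of 14 pools. *Pfkp* was at 0.889, 1.15 and 1.46 against 0.1, 0.345 and 0.648, a log2 fold change of 1.72 ± 0.17 (adjusted p = 8.1e-08), again without overlap. *Pfkl* (0.82), *Pfkm* (0.71) and *Gpi1* (0.75), the isomerase before phosphofructokinase, rose in all 14 pools. *Pfkfb3*, whose product makes the activator of phosphofructokinase, was at 0.51, 0.751 and 1.19 against 0.162, 0.234 and 0.372 (1.54 ± 0.11, adjusted p = 1.8e-09), without overlap, whereas *Pfkfb4* was not called at -0.33.

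In the lower pathway *Gapdh* was at 9.97, 49.4 and 56.6 UMIs per 10,000 in OB2-like against 6.94, 19.1 and 29.03 in OB1-like cells, a 2.29-fold difference (1.20 ± 0.15 on the log2 scale, adjusted p = 9.2e-07). It was higher in 14 of 14 pools, but the ranges over pools overlapped, since OB2-like pools 17 and 18, at 19.5 and 9.97, lay within the OB1-like range. *Pgk1* was at 16.5, 17.9 and 20.6 against 2.8, 9.81 and 12.1 (0.90 ± 0.09, adjusted p = 6.4e-08), with no overlap. *Aldoa* (0.85), *Tpi1* (0.74) and *Pgam1* (0.88) also rose in all 14 pools and did not overlap, and *Aldoc* rose by 0.64. The 3 enolases differed in direction. *Eno1* was higher by 1.34 and *Eno2*, the neuronal form, by 2.52 ± 0.26 (adjusted p = 9.8e-08), from a median of 0.143 to 0.939. *Eno3*, the muscle form, was lower (-2.39 ± 0.22, adjusted p = 2.8e-08) at a low level, 0.0183 against 0.0849.

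At the end of the pathway *Ldha* was at 22.7, 25.6 and 29.5 against 10.9, 17.8 and 20.1, and although the groups did not overlap, its log2 fold change of 0.43 ± 0.04 (adjusted p = 6.2e-08) was under the limit of 0.5. *Pkm* was likewise under it (0.37 ± 0.09, adjusted p = 0.0015, higher in 13 of 14 pools). *Slc16a3* was at 3.26, 3.95 and 5.33 against 0.51, 1.95 and 2.56 (0.98 ± 0.10, adjusted p = 7e-08), without overlap, and *Slc16a1*, the carrier MCT1 that moves lactate either way, was higher by 0.57, a call lost with doublets kept, with a looser gate and with the gate from *Bsg* and *Mt1* alone. Of the genes for mitochondrial entry, *Mpc1* (-0.44) and *Mpc2* (-0.48) had lower levels in 13 of 14 pools and stayed just under the fold limit. *Pdha1* (0.31) and *Pdhb* (0.00), the E1 subunits of pyruvate dehydrogenase, were not called. Among the kinases that inhibit it, *Pdk1* (0.74) and *Pdk3* (0.75) rose, and *Pdk2* (0.17) and *Pdk4* (0.35) were not called. *Bpgm*, which makes 2,3-bisphosphoglycerate, was lower (-0.82).

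The OB2-like gate rests on *Ndrg1*, *Ero1l*, *Bsg* and *Mt1*, of which the first 2 are known targets of HIF, and *Bsg* encodes the chaperone of the lactate carriers. Cells were thus chosen on genes of a related program. Gating on *Bsg* and *Mt1* alone gave 19 higher and 2 lower. That gate still holds *Bsg*, so it cannot separate the result from the choice of cells. The shares of all genes under it are not given. Markers of other classes also differed. Of the 8 LMP markers, 7 were called higher in OB2-like than in OB1-like cells, and their summed level was 4.29 to 9.29 UMIs per 10,000 (median 5.45) over pools against 1.55 to 7.28 (median 2.25), beside a median of 109 in LMP-like cells. Of the 7 cell cycle markers 4 were higher, and of the 9 osteogenic markers 1 was higher and 6 were lower. Their part in the results was not tested. In a list of 20 HIF pathway genes, 17 were higher and none lower, 2 of them the gate markers. The largest other differences were in the peptide hormone *Adm* (2.95) and the oxygen sensor *Egln3* (2.43). Of 23 genes of the tricarboxylic acid (TCA) cycle list, 2 were higher and 1 lower. In the glycogen list 4 of 12 were higher and none lower, led by glycogen synthase *Gys1* (2.08) and branching enzyme *Gbe1* (1.70). A pentose phosphate list had 2 of 7 higher and 2 lower. A list of other glucose and lactate genes, which holds the gate marker *Bsg*, had 2 of 5 higher and 1 lower.

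**Figure D3:**
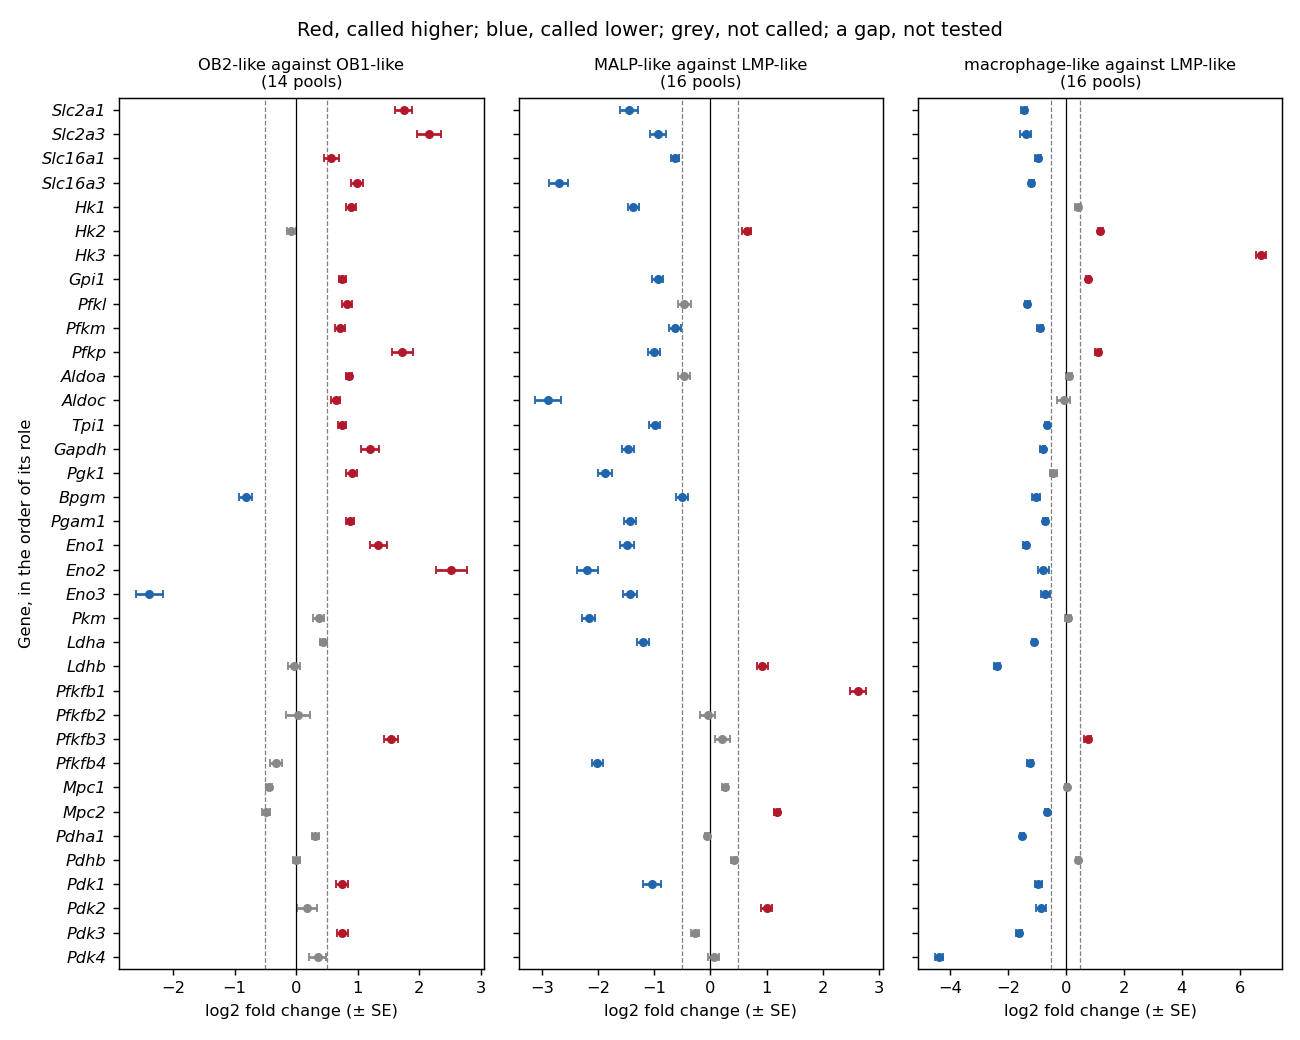
Log2 fold change with its SE (horizontal axis) of each gene (rows, by role) in 3 comparisons, OB2-like against OB1-like, MALP-like against LMP-like and macrophage-like against LMP-like cells, with dashed lines at 0.5 on each side of 0. Red points were called higher (20, 5 and 5 genes), blue points lower (2, 21 and 22), grey points were not called, and a gap marks a gene not tested.

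MALP-like cells, the adipogenic branch, had less mRNA of most glycolytic steps than LMP-like cells and more of the pyruvate carrier subunit *Mpc2*. Of 35 genes tested in 16 pools, 5 were higher and 21 lower (18.4% and 19.0% of 11803 genes), with a median log2 fold change of -0.94 against 0.01 over all genes. Scaled by library size alone the counts were 7 higher and 18 lower, with the median of all genes shifted by 0.26, and *Pfkm*, *Slc16a1* and *Bpgm* were then not called.

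For every step from triose phosphate to lactate export at least 1 gene was lower. *Pkm*, pyruvate kinase, was at 1.21, 2.09 and 3.96 UMIs per 10,000 in MALP-like and 4.97, 8.47 and 12.8 in LMP-like cells. All 16 MALP-like pools lay below the lowest LMP-like pool, with a log2 fold change of -2.16 ± 0.12 (adjusted p = 3.9e-13). *Pgk1* was at 1.41, 2.97 and 5.67 against 3.85, 11.1 and 16.1 (-1.87 ± 0.13, adjusted p = 3.8e-11). *Gapdh* was at 5.55, 8.13 and 16.003 against 10.5, 19.7 and 37.4 (-1.46 ± 0.11, adjusted p = 5.6e-11), and *Ldha* at 5.12, 7.58 and 12.5 against 11.1, 16.8 and 21.4 (-1.20 ± 0.11, adjusted p = 1.3e-09). These 3 were lower in all 16 pools, though pools overlapped between the classes. *Slc16a3* was at 0.0867, 0.234 and 0.539 against 0.66, 1.39 and 1.89 (-2.70 ± 0.17, adjusted p = 4.2e-12), without overlap. *Aldoc* (-2.89), *Eno2* (-2.19) and *Pfkfb4* (-2.01) fell by more than 2 on the log2 scale. *Aldoa* (-0.47) and *Pfkl* (-0.47) were under the fold limit.

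The 5 genes higher in MALP-like cells were *Mpc2*, *Ldhb*, *Hk2*, *Pdk2* and *Pfkfb1*. *Mpc2*, a subunit of the mitochondrial pyruvate carrier, was at 3.1, 4.11 and 4.92 against 1.15, 1.45 and 1.82 and did not overlap (1.19 ± 0.05, adjusted p = 5.7e-15). Its partner *Mpc1* had a log2 fold change of 0.27, above in 16 of 16 pools but under the fold limit, as did *Pdhb* (0.42, 16 of 16 pools). *Ldhb*, the lactate dehydrogenase subunit that favors the formation of pyruvate, was at 0.709, 0.878 and 2.17 against 0.271, 0.396 and 0.607 (0.92 ± 0.09, adjusted p = 1.5e-08), without overlap and with pool 7 highest. *Hk2* was at 0.864, 1.32 and 2.01 against 0.515, 0.677 and 1.02 (0.65), while *Hk1* was lower (-1.37). *Pdk2* rose (1.00) and *Pdk1* fell (-1.04). *Pfkfb1*, the liver form, rose by 2.63 but reached only 0.0453 UMIs per 10,000.

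Outside the 36 genes, 12 of 20 HIF pathway genes were lower in MALP-like cells and 1 was higher. The insulin-responsive glucose carrier *Slc2a4* (2.95), pyruvate carboxylase *Pcx* (2.13) and the first enzyme of the pentose phosphate pathway *G6pdx* (2.22) were higher. In the pentose phosphate list 3 of 7 genes were higher and 1 lower (5 and 0 by library size alone). In the TCA list 4 of 24 were higher and 1 lower (7 and 1). A list of other glucose and lactate genes had 2 of 7 higher and 3 lower (4 and 2), with *Pgam2* lower by the most (-4.45). In the glycogen list 1 of 12 was higher and 4 were lower (3 and 2). Of the 9 osteogenic markers 1 was higher and 7 were lower in MALP-like cells. Their summed level had a median of 25.7 (12.0 to 41.3) over MALP-like pools and 99.8 (39.5 to 130.6) over LMP-like pools. Median depth was 8451 UMIs per cell in MALP-like and 16897 in LMP-like cells. The part of osteogenic RNA and depth in the differences between these classes was not tested.

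Along the osteoblast lineage genes were called in both directions at each step. Beside the shares of all genes, given in parentheses, the counts show no clear shift particular to the genes followed here. OBP-like against LMP-like cells had 7 of 34 genes higher and 4 lower (20.2% and 21.7% of 12025 genes). Scaled by library size alone the split was 4 higher and 7 lower, with the median of all genes shifted by -0.34, so directions here are relative to TMM scaling. *Ldha*, *Pfkfb4* and *Slc16a1* were called only under TMM scaling of the 2. *Pkm* was at 8.35, 13.3 and 15.7 in OBP-like against 4.97, 8.47 and 12.8 in LMP-like cells (0.96 ± 0.09, adjusted p = 3.8e-09) and higher in 15 of 16 pools. *Slc16a3* (1.24), *Aldoc* (1.50), *Hk2* (0.89), *Ldha* (0.63), *Pfkfb4* (0.62) and *Slc16a1* (0.59) also rose. *Pdk4*, the kinase known for sparing glucose during fasting, was at 0.233, 0.348 and 0.531 against 0.691, 0.921 and 1.46 and did not overlap (-1.10 ± 0.09, adjusted p = 2.9e-10). *Eno2* (-0.79), *Ldhb* (-0.75, lower in 16 of 16 pools) and *Slc2a1* (-0.54) fell, the last a call lost with a looser gate.

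From OBP-like to OB1-like cells 2 of 33 genes were higher and 2 lower (10.3% and 7.94% of 10805 genes, and 1 higher and 5 lower by library size alone). *Aldoc* (0.79) and *Pdk4* (0.57) rose, the latter not called by library size alone or with a looser gate. *Eno1* fell in 16 of 16 pools, from 0.743, 2.16 and 5.3 to 0.429, 1.12 and 2.21 (-0.93 ± 0.09, adjusted p = 7.7e-09), and *Slc2a3* fell by 0.57, a call lost without the replicate block, in the second run and with a looser gate. From OB1-like to Ocy-like cells 3 of 33 were higher and 3 lower (6.56% and 7.63% of 9924 genes, and 7 higher and 2 lower by library size alone). *Pfkfb4* was at 0.0381, 0.0956 and 0.138 against 0.118, 0.214 and 0.391 (-1.32 ± 0.11, adjusted p = 1.8e-10) and *Pdk4* at 0.131, 0.229 and 0.403 against 0.245, 0.432 and 0.669 (-1.06 ± 0.08, adjusted p = 1.1e-10), both lower in all 16 pools. *Pdk3* fell (-0.52), and *Bpgm* (0.62), *Pfkp* (0.56) and *Eno3* (0.53) rose. The last call was lost under 7 of 15 alternatives, among them without pools 1 and 2, without pools 17 and 18, with at least 50 cells and with either a stricter or a looser gate. The call of *Pdk3* was lost under 6 of 15, among them without pools 1 and 2, by library size alone and in a joint fit over all classes. *Pfkp* was not called without the replicate block. Without the replicate block 1 gene was higher and 2 lower.

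Progenitors with many and with few cell cycle markers detected were compared next. Among LMP-like cells, those with at least 4 of 7 cell cycle markers detected had none of 33 genes higher and 2 lower than those with at most 1 (9.26% and 6.73% of 10798 genes). *Aldoc* (-1.34 ± 0.15, adjusted p = 2.9e-08) and *Pdk2* (-0.76) were the ones lower. DESeq2 also gave 0 higher and 2 lower, whereas with no low-count filter, and in a joint fit over all classes, 1 was higher and 3 lower. At an unadjusted p under 0.05 edgeR had 10 higher and 12 lower. Another 18 genes passed the adjusted p with a smaller fold. Among them were *Eno1* (0.27), *Ldha* (0.23), *Gapdh* (0.21) and *Pkm* (0.21) with positive values, and *Pdk4* (-0.39) with a negative one. The shares of all genes under these looser rules are not given, so the counts show no shift particular to these genes. The cycling cells had a median of 23026 UMIs and the other cells 14882 (23503 against 2438 in pool 1). The part of depth in these values was not tested.

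Macrophage-like cells, which grew in the same cultures, had 5 of 34 genes higher and 22 lower than LMP-like cells (29.7% and 35.9% of 11669 genes), with a median log2 fold change of -0.79 against -0.10 over all genes. *Hk3*, a hexokinase of myeloid cells, was at 0.465, 0.663 and 1.02 and at most 0.0204 in LMP-like cells, where 130 UMIs were counted in all (6.73 ± 0.17, adjusted p = 9.6e-21). *Hk2* was at 0.945, 1.57 and 2.24 against 0.515, 0.677 and 1.02 (1.18 ± 0.09, adjusted p = 1.5e-11). *Pfkp* (1.11), *Gpi1* (0.78) and *Pfkfb3* (0.76) were higher in all 16 pools, whereas *Pfkl* was lower and did not overlap, at 0.278, 0.428 and 0.656 against 0.783, 1.14 and 1.9 (-1.33 ± 0.08, adjusted p = 1.6e-13).

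Of the genes for pyruvate handling, *Pdk4* was at 0.0162, 0.0386 and 0.109 against 0.691, 0.921 and 1.46 (-4.38 ± 0.14, adjusted p = 1.2e-18), the largest decrease among the 34 genes tested. *Pdha1* was at 0.313, 0.451 and 0.66 against 1.1, 1.36 and 1.6 (-1.51 ± 0.06, adjusted p = 1.7e-16) and *Ldhb* at 0.0325, 0.0709 and 0.134 against 0.271, 0.396 and 0.607 (-2.38 ± 0.12, adjusted p = 3.9e-15), and neither overlapped. *Ldha* (-1.10), *Eno1* (-1.38), *Slc2a1* (-1.45), *Slc16a3* (-1.19) and *Pdk3* (-1.62) also fell. *Pkm* (0.08), *Aldoa* (0.11) and *Mpc1* (0.04) did not pass the adjusted p. In the pentose phosphate list 4 of 7 genes were higher and none lower, led by *Pgd* (2.37) and *Taldo1* (2.34). The HIF list had 3 of 20 higher and 12 lower, and the TCA list 4 of 24 higher and 10 lower. The glycogen list had 3 of 12 higher and 5 lower, and the list of other glucose and lactate genes 2 of 7 higher and 3 lower. The bone matrix gene *Ibsp* was at a median of 14.5 UMIs per 10,000 in macrophage-like and 79.96 in LMP-like cells, and median depth was 4431.5 against 16897 UMIs per cell. The part of free RNA and depth in these values was not tested.

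Osteoclast-like cells could be compared with macrophage-like cells in 4 pools (1, 2, 9 and 13), where 9 of 30 genes were higher and 2 lower (12.7% and 12.7% of 8694 genes, and 11 higher and 0 lower by library size alone). Both subunits of pyruvate dehydrogenase E1 and the carrier subunit *Mpc2* were among those higher. *Mpc2* was at 2.68, 1.86, 3.78 and 2.26 UMIs per 10,000 in osteoclast-like and 0.962, 0.772, 0.714 and 0.966 in macrophage-like cells of pools 1, 2, 9 and 13. All 4 pools were higher and the groups did not overlap (1.49 ± 0.18, adjusted p = 1.5e-05). *Pdha1* was at 1.26, 1.01, 1.97 and 1.1 against 0.493, 0.437, 0.409 and 0.454 (1.40 ± 0.18, adjusted p = 2.5e-05), and *Pdhb* at 0.965, 0.937, 1.35 and 1.73 against 0.536, 0.547, 0.507 and 0.475 (1.04 ± 0.19, adjusted p = 0.00063). *Ldhb* was at 0.49, 0.415, 0.622 and 0.473 against 0.068, 0.0693, 0.0492 and 0.0961 (2.72 ± 0.27, adjusted p = 2.4e-06). None of these overlapped between the classes.

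The muscle enolase *Eno3* was at 0.781, 0.184, 0.518 and 1.21 in osteoclast-like against 0.0713, 0.0681, 0.0271 and 0.0961 in macrophage-like cells (3.01 ± 0.35, adjusted p = 1.2e-05). *Aldoc* (2.06), *Pdk4* (1.83), *Pdk3* (1.80) and *Slc2a1* (0.59) were higher too. *Pfkl* and *Slc16a3* were called lower (both -0.72). Neither was called without pool 1 (7 higher, 0 lower in all), without pool 2 or without pool 13 (9 higher, 0 lower), and *Slc2a1* was not called when any of the 4 pools was left out. All 3 calls were also lost with DESeq2, without the replicate block, in the second run and in the joint fit over all classes. The abundant enzymes *Aldoa* (0.36), *Gapdh* (0.13), *Pgam1* (0.24), *Pkm* (-0.28), *Pgk1* (-0.06) and *Ldha* (-0.07) were not called. In the TCA list 16 of 21 genes were higher and none lower, with *Mdh2* (1.59) and *Idh3a* (1.48) at the top. The pentose phosphate list had 0 of 7 higher and 3 lower, and the HIF list 4 of 19 higher and 1 lower. The glycogen list had 0 of 11 higher and 1 lower, and the list of other glucose and lactate genes 1 of 5 higher and 1 lower. *Ibsp* was at a median of 40.2 over the 4 osteoclast-like pools and 14.5 over all 16 macrophage-like pools, and *Col1a1* at 24.3 and 13.1. Of the osteogenic markers tested 4 of 8 were higher in osteoclast-like cells and none lower, and of the LMP markers 4 of 7 and none. The part of attached or mixed-in bone cells was not tested.

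Granulocyte-like cells against macrophage-like cells had 13 of 26 genes higher and 5 lower in 11 pools (27.6% and 32.2% of 7462 genes). By library size alone the split was 7 higher and 10 lower and the median of all genes shifted by -0.55. Macrophage-like levels in this comparison are over all 16 of its pools and the tests over the 11 pools with both classes. The granule gene *S100a8* made up a median of 826 UMIs per 10,000 in granulocyte-like cells. Cell cycle markers there summed to 9.86 to 25.1 UMIs per 10,000 (median 17.6) over pools, against 1.77 to 5.57 (median 3.25) in macrophage-like cells. Monocyte markers summed to 6.67 to 15.7 (median 13.1) against 0.129 to 32.6 (median 0.83). Their part in the results was not tested. *Slc2a3* was at 0.278, 0.727 and 1.36 in granulocyte-like against 0.022, 0.0463 and 0.134 in macrophage-like cells, above in 11 of 11 pools (4.13 ± 0.19, adjusted p = 9.4e-14). *Mpc2* was at 1.67, 2.63 and 3.2 against 0.672, 0.853 and 1.00 (2.08 ± 0.10, adjusted p = 2.8e-13). *Gpi1* (1.22), *Eno1* (1.38), *Pfkfb4* (1.90) and *Mpc1* (1.01) were higher in all 11 pools.

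In the same comparison *Hk2* was lower in 11 of 11 pools, at 0.0769, 0.227 and 0.41 against 0.945, 1.57 and 2.24 (-2.21 ± 0.16, adjusted p = 9.7e-11), and *Pfkfb3* (-1.24) and *Pfkp* (-0.89) were lower without overlap. *Pgk1*, *Pkm* and *Slc16a3* were called higher under TMM scaling (0.56, 0.50 and 0.61), although their level per 10,000 UMIs was higher in only 6 of 11, 4 of 11 and 4 of 11 pools. These calls therefore depend on the scaling. By library size alone *Pkm* was at -0.040 (adjusted p = 0.71), while *Pgk1* and *Slc16a3* kept a positive sign but were not called. *Gapdh*, *Mpc1* and *Pdha1* were likewise not called by library size alone. Under TMM scaling 8 of 11 genes of the glycogen list were higher and 1 lower, led by the phosphorylase *Pygl* (3.33), and by library size alone 4 were higher and 2 lower. In the pentose phosphate list 6 of 7 were higher and none lower under TMM scaling, and 3 and none by library size alone. Of all genes 27.6% were higher and 32.2% lower under TMM scaling. The TCA list had 3 of 21 higher and 8 lower (1 and 15 by library size alone). The HIF list had 4 of 17 higher and 4 lower (1 and 10). The list of other glucose and lactate genes had 1 of 4 higher and 2 lower (1 and 3).

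Single genes ordered the classes differently, which is given here as levels with no test. For *Pdk4* the median level fell off from MALP-like (1.24 UMIs per 10,000, 0.733 to 1.69 over pools) and LMP-like cells (0.921, 0.691 to 1.46) through OB2-like (0.592), OB1-like (0.432) and OBP-like (0.348) to Ocy-like cells (0.229, 0.131 to 0.403), each overlapping the next. The MALP-like and LMP-like pools lay above all OB1-like, OBP-like and Ocy-like pools. *Mpc2* was highest in MALP-like cells (4.11), followed by granulocyte-like (2.63) and osteoclast-like cells (2.47), and lowest in OB2-like cells (0.677, 0.509 to 0.814). *Pkm* was highest in OB2-like cells (18.4, 12.2 to 21.5), with T-cell-like (14.8), OBP-like (13.3) and Ocy-like cells (13.2) overlapping it, and lowest in MALP-like (2.09) and B-cell-like cells (2.04). *Slc2a3* was highest in T-cell-like cells (0.971, 0.268 to 1.56), then in granulocyte-like (0.727) and OB2-like cells (0.335), which overlapped. *Hk2* was highest in macrophage-like (1.57) and MALP-like cells (1.32) and lay between 1.04 and 1.08 in OBP-like, osteoclast-like, OB1-like and OB2-like cells. Over the 9 comparisons *Aldoc* and *Slc16a3* were each called in 6, and *Pfkfb2* in none.

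Isoenzyme shares, the share of each gene in the summed UMIs of its family, describe the mRNA of a class and not enzyme protein. They are medians over pools with no test. *Hk2* made up 54.3% of hexokinase UMIs in LMP-like and 82.5% in MALP-like cells, *Hk1* 54.3% in OB2-like cells beside 38.2% in OB1-like ones, and *Hk3* 23.04% in macrophage-like and 35.2% in granulocyte-like cells. *Pfkp* made up 28.1% of phosphofructokinase in LMP-like and 67.5% in macrophage-like cells. *Eno2* made up 24.1% of enolase in OB2-like cells beside 9.6% in OB1-like ones, and *Eno3* made up 32.1% in osteoclast-like cells, shares that are uncertain because *Eno1* is in their denominator. *Slc2a3* held 80.8% of both glucose carriers in granulocyte-like, 61.97% in T-cell-like and 12.9% in LMP-like cells.

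For lactate and pyruvate, *Ldhb* made up 9.88% of lactate dehydrogenase in MALP-like cells (6.06 to 29.7% over pools), 7.55% in osteoclast-like (4.76% in the second run), 2.27% in LMP-like and 1.15% in macrophage-like cells, so *Ldha* dominated in each. *Mpc2* was 67.6% of the pyruvate carrier in MALP-like and 50.96% in LMP-like cells. *Pdk4* was 61.4% of the kinases in MALP-like, 51.9% in LMP-like, 28.2% in OBP-like, 22.002% in Ocy-like and 10.2% in macrophage-like cells. Some families hold few UMIs per pool in the small blood classes, so their shares are coarse there.

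**Figure D4:**
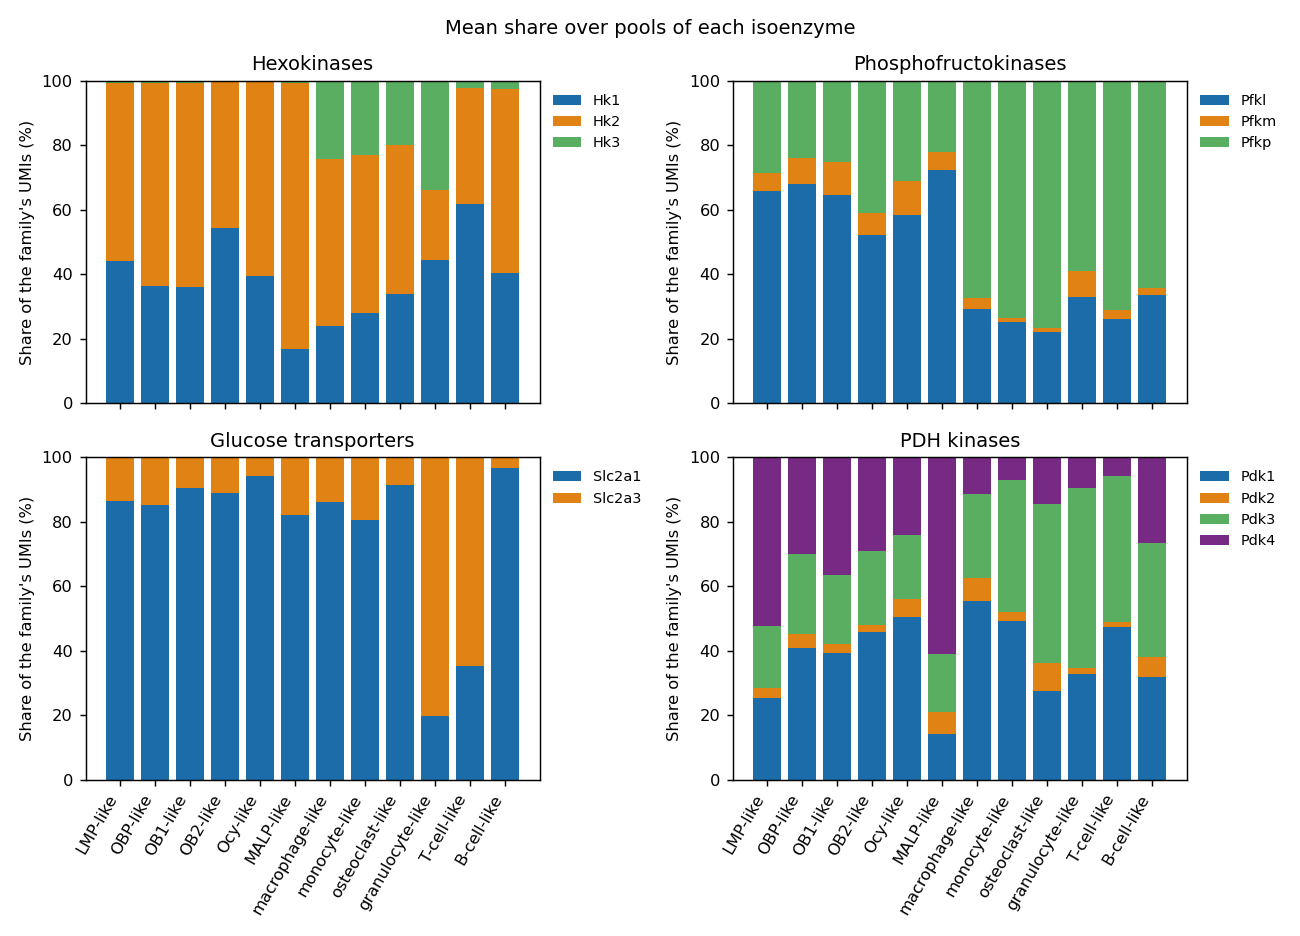
Share of each isoenzyme in the summed UMIs of its family (percent, vertical axis) by cell class (horizontal axis), as the mean over pools, for hexokinases, phosphofructokinases, glucose transporters and pyruvate dehydrogenase kinases. *Hk3* appears in the myeloid classes, *Pfkp* takes most of the macrophage-like bar, *Slc2a3* most of the granulocyte-like and T-cell-like bars, and *Pdk4* most of the MALP-like bar.

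Pools differed in these genes as well as classes. Over 6 classes (LMP, OBP, OB1, Ocy, MALP and macrophage-like) and 16 pools, 59.6% of the variance of log2 level lay between classes and 19.9% between pools for the median of 34 genes, against 76.7% and 10.1% for the median of 9722 genes. The genes with the highest share between pools were *Eno1* (50.3%), *Aldoa* (49.5%), *Eno2* (46.3%) and *Gapdh* (45.5%), and those with the highest share between classes *Hk3* (98.5%), *Pdk4* (93.1%), *Mpc2* (92.6%) and *Ldhb* (92.5%).

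In pool 17 *Gapdh* was -1.01 from the other pools on the log2 scale (median of 6 classes, -1.45 to -0.47) and *Eno1* -1.40. In pool 18 they were at -0.73 and -0.88, and in pool 5 *Eno1* was at 1.27. *Gapdh* was also low in pool 2, at -0.91. Pools 1 and 2, which also had too few OB2-like cells to enter that class, were at -1.15 and -1.39 for *Pgk1* and -0.95 and -1.07 for *Slc2a1*. In pool 1, 14 of 34 genes were below the other pools in all 6 classes (41.2%, beside 9.18% of 9722 genes), and in pool 2, 18 of 34 (52.9%, beside 11.2%). Above in all 6 classes were 14 genes in pool 5 (41.2%, beside 7.15% of all genes), 12 in pool 11 (35.3%, beside 3.82%) and 11 in pool 10 (32.4%, beside 14.8%), and also 10 in pool 17 (29.4%, beside 9.16%), where *Gapdh* and *Eno1* were low. Each pool is 1 library of different mice, so mouse genotype, culture and library cannot be told apart. Leaving out pools 1 and 2 or pools 17 and 18, chosen after the data were seen, changed no count of called genes by more than 1.5 times. Besides the calls named above, *Pgk1*, *Pkm* and *Slc16a3* in granulocyte-like cells were no longer called without pools 17 and 18.

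**Figure D5:**
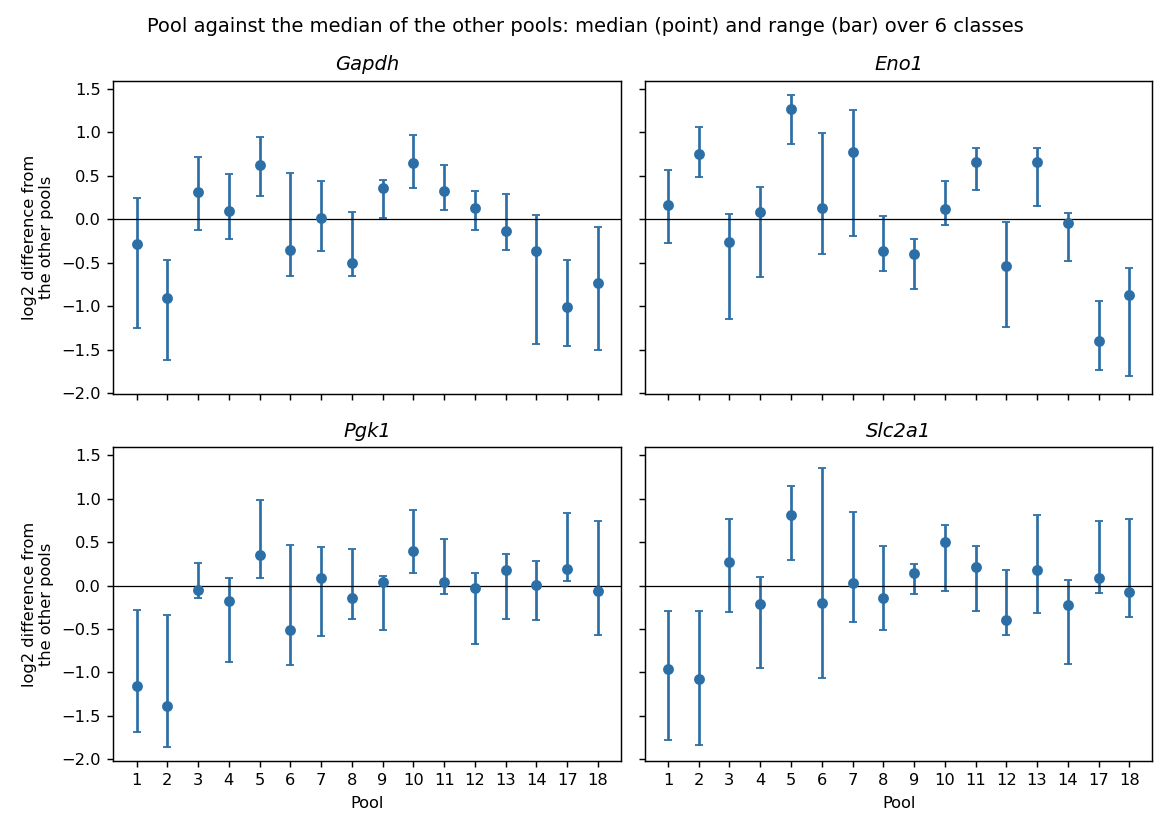
Log2 difference of each pool (horizontal axis) from the median of the other pools for *Gapdh*, *Eno1*, *Pgk1* and *Slc2a1*, with the median over 6 classes as a point and the range over them as a bar. *Eno1* is lowest in pools 17 (-1.40) and 18 (-0.88), and *Pgk1* and *Slc2a1* are lowest in pools 1 and 2.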

How the data were processed

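The authors aligned and counted the reads of each library with Cell Ranger 5.0.0 against the mm10 genome and deposited raw UMI counts for each gene in each cell barcode. Their cell annotation was not used here. The 36 genes, the other gene lists and the markers were chosen with earlier results of these data known, and all 36 are named by role.

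The first of 2 sequencing runs of each pool was used, because 84.5% to 99.8% of barcodes recurred in the second. Any pair of pools shared at most 28 barcodes. Cells with 400 to 6200 genes and at most 10% mitochondrial, 20% *Rpl* and 15% *Rps* UMIs were kept (88909), and 5003 called doublets (5.63%) were removed. Each cell took the class whose markers scored highest over a minimum lead, and 11.2% of cells in the first step and 15.6% in the second lay near that limit. For each class the counts of a pool's cells were added up and compared with edgeR 4.0.16 (filterByExpr, TMM, quasi-likelihood, pool as block) across all genes, in pools with at least 20 cells of both classes. Pairing is by pool, since both classes came from the same library of 4 or 5 mice. Same-pool deviations correlated at 0.02 to 0.82 over the comparisons. Cells were not assigned to single mice, so the mix of mice can differ between 2 classes of a pool. The part of mouse genotype in the class differences was not tested. P-values rest on how much the difference between 2 classes varied from pool to pool, since the block takes up the level of each pool. Log levels used a pseudocount of 0.1. Simulated data with known fold changes gave recovery of 97.5% to 99.5% of changed genes in 7 comparisons, 89% for granulocyte-like (7229 genes) and 64.5% for osteoclast-like against macrophage-like cells (8511 genes). A second feature named *Aldoa*, with 11 UMIs, was not used. Median UMIs per kept cell ranged from 2782 to 15273 over pools, which sets the precision of low levels. Alternatives were DESeq2 1.42.0, library size scaling, no filter, other gates, the second run, doublets kept, a joint fit, no block and pools left out. Promoter letters are RefSeq GRCm38.p6, and coordinates of genes are GENCODE M21.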

Additional observations from a re-analysis of the deposited data

Results flagged for a closer look

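Of 67 groups of 4 to 10 pools with a median of at least 0.5 UMIs per 10,000, 5 had 1 pool far from the rest (Dixon's gap criterion), a number to read beside the 1 in 20 groups that chance gives. In osteoclast-like cells pool 13 was lowest for *Pfkp* at 0.525 UMIs per 10,000 (median 1.33) and highest for *Aldoa* at 16.03 (median 12.3). In B-cell-like cells pool 17 was highest for *Tpi1* at 2.84 (median 1.41), *Pkm* at 4.50 (median 2.04) and *Mpc1* at 1.61 (median 1.01). No cause was tested.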

How the results depend on the processing

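Of 127 calls of a gene in a comparison, 103 were kept under every alternative run, 24 were lost under at least 1, and 1 changed sign, *Pkm* in granulocyte-like against macrophage-like cells at -0.040 by library size alone. Some alternatives could not lose a call. The adjusted p alone only loosens the rule. Pools 1 and 2 were not in the OB2-like comparison and pool 13 was not in the granulocyte-like one, so leaving them out changed nothing there. The osteoclast-like fit without pool 13 was counted under 2 names. With the adjusted p alone, without the fold limit, 25 genes were called in OBP-like against LMP-like and 16 in OB1-like against OBP-like cells. The same rule gave 20 in Ocy-like against OB1-like and 20 in cycling against other LMP-like cells. The shares of all genes under this looser rule are not given, so these counts show no shift particular to the genes followed here. Without the replicate block, Ocy-like against OB1-like cells had 3 called genes in place of 6, and no other count moved by over 1.5 times. Cycling against other LMP-like cells had 4 with no low-count filter and 4 in a joint fit over all classes. Leaving out 1 pool at a time, osteoclast-like against macrophage-like cells had 7 to 10 called genes, 7 without pool 1. The mean of the log2 levels differed by 0.52 between OB2-like and OB1-like, -0.45 between macrophage-like and LMP-like and 0.34 between osteoclast-like and macrophage-like cells, and with a pseudocount of 1 by 0.33, -0.21 and 0.14, since low genes then weigh less. In small classes some shares moved. In the second run *Ldhb* was 4.76% in osteoclast-like, *Eno2* 1.46% and *Pdk4* 2.70% in T-cell-like and *Pfkfb4* 18.3% in B-cell-like cells, and with doublets kept *Pdk4* was 20.6% in osteoclast-like cells. The cause was not tested. The osteoclast-like comparison could not be run with at least 50 cells or without pools 1 and 2, as fewer than 3 pools remained. In simulated data 64.5% of changed genes, all changed by well over the fold limit, were recovered in that comparison.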

Other observations

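Classes that entered no comparison had these levels. In T-cell-like cells of 4 pools *Gapdh* was at 14.9, 43.8 and 56.8 UMIs per 10,000 (lowest, median and highest), *Ldha* at 7.27, 18.1 and 21.9 and *Slc2a3* at 0.268, 0.971 and 1.56. In monocyte-like cells of 5 pools *Gapdh* was at 6.95, 16.5 and 32.4, *Pkm* at 4.69, 11.2 and 13.8 and *Hk3* at 0.174, 0.429 and 0.905. In B-cell-like cells of 6 pools *Gapdh* was at 2.75, 4.03 and 6.32 and *Pkm* at 1.2, 2.04 and 4.5.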
